A study of Oryza sativa with 6 samples.

Results

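The DREB1 and DREB2 transcription factors of rice were followed in the flag leaf as 9 genes, 7 of the DREB1 group and 2 of the DREB2 group, among 91180 annotated features. The members were taken by gene identifier alone: DREB1A (OS09G0522200), DREB1B (OS09G0522000), DREB1C (OS06G0127100), DREB1E (OS04G0572400), DREB1F (OS01G0968800), DREB1G (OS02G0677300), DREB1H (OS09G0522100), DREB2A (OS01G0165000) and DREB2B (OS05G0346200). All 9 were present in the tables, and 7 of them had at least 1 read. WT was the rice cultivar ZH-11 (ZhongHua11), and OsRUS1-OX was a single transgenic line, chosen among at least 6, that overexpressed OsRUS1 fused to GFP in the same cultivar. Each genotype had 3 RNA-Seq libraries, each from flag leaves of 3 pooled plants grown in the field and picked at heading, at 11 h on a sunny summer day. Leaves of WT were expanded at picking and those of OsRUS1-OX rolled, and genotype and leaf state cannot be told apart in any comparison below.

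DREB proteins carry an AP2 DNA-binding domain and bind the dehydration-responsive element, a short sequence in the promoters of many cold, drought and salt genes. DREB1 genes, called CBF in Arabidopsis, are best known for fast and short-lived induction by cold, whereas DREB2 genes are better known from water deficit, salt and heat. In leaves without stress the transcripts of most DREB1 genes are scarce. Dehydrins, other LEA proteins and enzymes that make osmoprotectants are known among the genes downstream of DREB factors.

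The libraries held 8759812 to 13532579 counted reads, and the threshold of 3 reads that a count of 0 allows stood at 0.222 to 0.342 CPM (reads scaled to library size). OS04G0290800, which the annotation of the study ties to vitamin B6 photo-protection and homoeostasis, was counted at 57, 120 and 102 reads in WT against 7313, 3515 and 7577 in the OsRUS1-OX libraries. The label flag leaf was checked against leaf genes: Rubisco activase (OS11G0707000) averaged 23979 FPKM in WT and 19882 FPKM in OsRUS1-OX and a light-harvesting protein (OS09G0346500) 8076 and 7527 FPKM, neither called. The Rubisco small subunit gene RBCS (OS12G0274700) was called lower, at 119 FPKM in WT and 59.4 FPKM in OsRUS1-OX (log2 fold change -1.08, edgeR adjusted p = 0.025). The root gene RCc3 (OS02G0662000) had no read. Of 4 panicle genes only MADS1 (OS03G0215400) was tested, at 6.16 FPKM in WT and 3.19 FPKM in OsRUS1-OX, and MADS6 had 6 reads in all, MADS7 had 1 and MADS8 had none. Over all features, 19694 passed the filter on low counts (at least 0.845 CPM in at least 3 libraries) and were tested with edgeR. Of these, 4644 (23.6%) were called at an adjusted p under 0.05, 2328 (11.8%) higher and 2316 (11.8%) lower in OsRUS1-OX.

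Only 3 of the 9 genes, DREB1C, DREB2A and DREB2B, had enough reads in at least 3 libraries to be tested. DREB1C and DREB2A were called higher in OsRUS1-OX, none was called lower, and DREB2B was not called, beside 23.6% called over all tested features. DREB1C passed the filter through its OsRUS1-OX libraries alone. A gene at its WT level could be tested only if it was higher in OsRUS1-OX. The count of 2 calls among 3 therefore carries no weight of its own. The 6 genes too low to test were DREB1A, DREB1B, DREB1G and DREB1H, with between 8 and 66 reads each over all libraries, and DREB1E and DREB1F, with none. DREB1A and DREB1B reached the CPM level of the filter in 1 library each. Every OsRUS1-OX library lay above every WT library in 3 of the 9 genes (DREB1C, DREB1G and DREB2A), and in 16.2% of the 31752 features with at least 1 read. In bulk leaf RNA, fewer cells of a type and less RNA per cell cannot be told apart.

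Compared per length, the DREB2 genes were by far the more abundant group in both genotypes. In WT the mean FPKM (fragments per kilobase of transcript scaled to library size, as the authors computed it) of DREB2B was 50.9 ± 7.32 (SD, n = 3), and that of DREB2A was 5.98 ± 0.785. The libraries of these genes did not overlap with each other or with the next gene in the order. Below them came DREB1B at 0.616 FPKM, DREB1A at 0.242 FPKM, DREB1H at 0.176 FPKM and DREB1C at 0.0743 FPKM in WT, each overlapping with its neighbour in the order, and DREB1E, DREB1F and DREB1G at 0. In OsRUS1-OX the order at the top was the same, with DREB2B at 53.4 ± 1.02 FPKM and DREB2A at 9.35 ± 0.856 FPKM (SD, n = 3). DREB1C came next at 3.42 ± 1.05 FPKM and did not overlap with DREB2A. DREB1B had a similar mean, 3.25 ± 4.98 FPKM, but its SD was larger than its mean. Its highest library, at 8.99 FPKM, lay above the lowest library of DREB2A, at 8.79 FPKM. The libraries of DREB1C, DREB1B, DREB1A, DREB1H and DREB1G overlapped each with the next. DREB2B made up 84.1% of the 3105 reads of all members in WT and 74.9% of 4466 in OsRUS1-OX, and DREB2A made up 15.2% and 20.5%. DREB1C took 0.0644% of the members' reads in WT and 2.24% in OsRUS1-OX. Added over the 7 DREB1 genes, the WT libraries held 4, 10 and 8 reads, against 113, 53 and 38 in OsRUS1-OX. The lack of overlap in this sum rested on DREB1C: without it, a sum added after seeing the data, 4, 8 and 8 reads remained for WT and 86, 11 and 7 for OsRUS1-OX, which overlap.

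**Figure D1:**
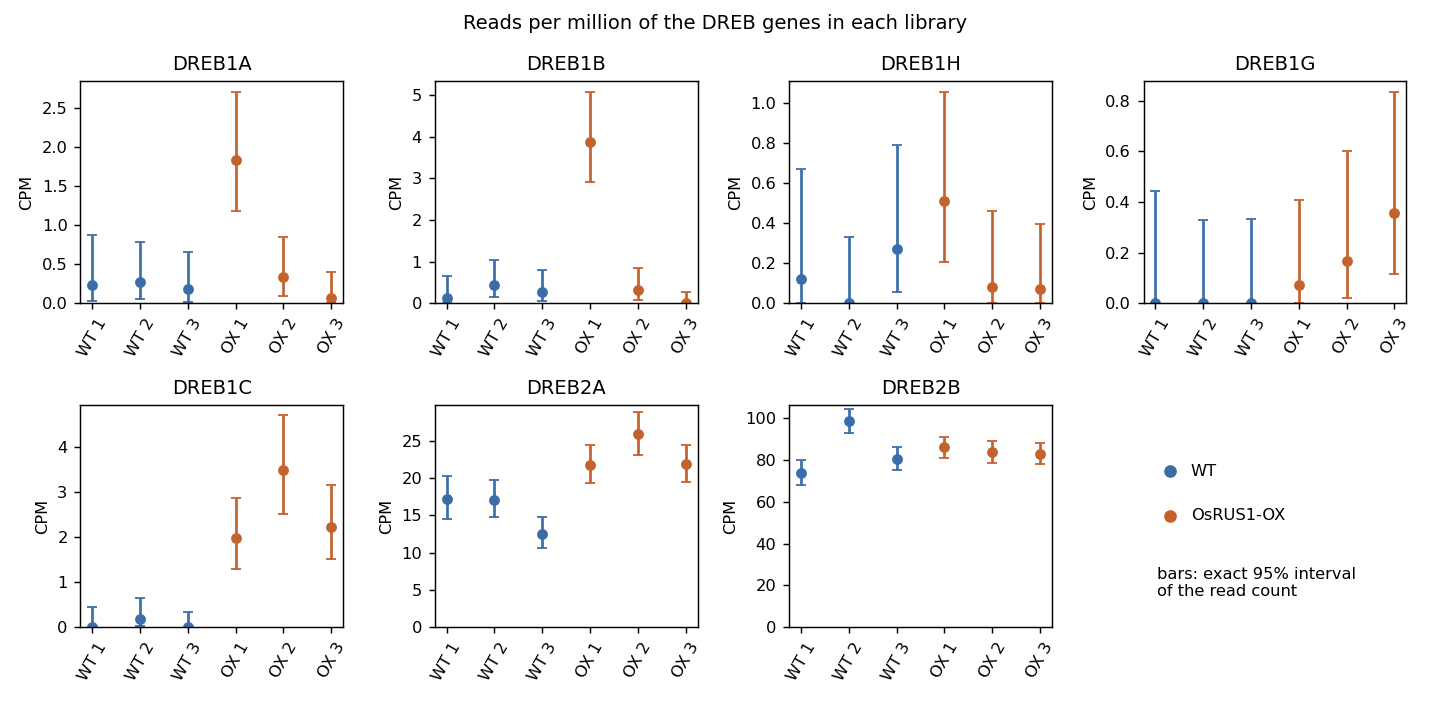
CPM (y axis, reads scaled by library size and TMM factor) of the 7 DREB genes with reads, 1 point per library (x axis, WT 1 to 3 in blue, OsRUS1-OX 1 to 3 in orange), with the exact 95% interval of the read count as bars. DREB1C was high in all 3 OsRUS1-OX libraries, whereas DREB1A and DREB1B stood out in OsRUS1-OX replicate 1 alone, and the y axes differ between genes.

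DREB1C, a DREB1 gene known in rice to respond to light and to low nitrogen, was close to silent in WT and low but present in OsRUS1-OX. WT libraries held 0, 2 and 0 of its reads, against 27, 42 and 31 for OsRUS1-OX. The groups did not overlap, and the lowest OsRUS1-OX library stood well above the single WT library with reads. As normalized counts (counts scaled to a common effective library size) WT stood at 0, 2.10 and 0, OsRUS1-OX at 23.2, 40.8 and 26.0. The mean was 0.699 ± 1.21 in WT and 30.0 ± 9.46 in OsRUS1-OX (SD, n = 3), and the highest OsRUS1-OX library was 19.4 times the highest WT library. Pooled over libraries and corrected for library size, DREB1C reads were 38.5 times as frequent in OsRUS1-OX, with an interval from 10.4 to 322 that covers counting error only. With edgeR the log2 fold change was 5.08 (SE 0.72, 95% interval 3.42 to 6.73, adjusted p = 0.0026), a value that depends on the prior count because WT had 2 reads in all. Without a filter DREB1C was still called (log2 fold change 5.11, edgeR adjusted p = 0.00032), beside 15.3% of 31752 features. The call was kept without each of the 6 libraries in turn, with log2 fold changes of 4.51 to 7.92 and edgeR adjusted p of 0.0047 to 0.011. The value of 7.92 was reached without WT replicate 2, where no WT read of DREB1C was left.

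DREB1B, DREB1H and DREB1A lie next to each other on chromosome 9 in this order (RefSeq assembly ASM3414082v1), and DREB1A and DREB1B are known in rice as cold-induced genes. All 3 had their highest value in OsRUS1-OX replicate 1. DREB1B was counted 1, 5 and 3 times in WT, against 53, 4 and 0 times in the OsRUS1-OX libraries. The 53 reads (exact 95% interval 39.7 to 69.3) stood apart from both other OsRUS1-OX libraries, whose intervals were 1.09 to 10.2 for 4 reads and 0 to 3.69 for 0 reads, and these overlapped with WT. In normalized counts DREB1B in OsRUS1-OX replicate 1 was 11.7 times the next OsRUS1-OX library and 8.67 times the highest WT library. Per length it reached 8.99 FPKM there, beside 8.79 FPKM for DREB2A in the same library. DREB1B was therefore as abundant as DREB2A in that library and had 0 to 5 reads in the other 5.

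Reads of DREB1A numbered 2, 3 and 2 for WT, against 25, 4 and 1 for OsRUS1-OX. The pattern was that of DREB1B at a lower level, with 25 reads (exact 95% interval 16.2 to 36.9) in OsRUS1-OX replicate 1 and the remaining OsRUS1-OX libraries within reach of WT. That library was 5.52 times the next OsRUS1-OX library and 6.81 times the highest WT library in normalized counts of DREB1A. DREB1H, which lies between the neighbours, was counted 1, 0 and 3 times in WT, against 7, 1 and 1 times in the OsRUS1-OX libraries. Its 7 reads were 6.18 times the next OsRUS1-OX library and 1.89 times the highest WT library in normalized counts, and at these counts no difference between the genotypes was detectable. Whether reads were shared between the 3 neighbouring genes was not tested. Other features were high in single libraries too: with at least 10 reads and at least 4-fold above each other library, 43 features stood out in OsRUS1-OX replicate 1, DREB1A and DREB1B among them, against 49 in OsRUS1-OX replicate 2, 5 in OsRUS1-OX replicate 3 and 10 to 32 in the WT libraries.

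Fitted without a filter, none of these neighbours was called over the 6 libraries. The log2 fold change was 2.27 (95% interval -0.23 to 4.77, edgeR adjusted p = 0.24) for DREB1B and 1.69 (95% interval -0.37 to 3.75, edgeR adjusted p = 0.30) for DREB1A. For DREB1H it was 0.76 (95% interval -1.66 to 3.19, edgeR adjusted p = 0.69). The direction rested on 1 library: without OsRUS1-OX replicate 1 the values turned to -0.82 for DREB1B, -0.20 for DREB1A and -0.66 for DREB1H, none called. Without OsRUS1-OX replicate 3, the library where DREB1B had no read, DREB1B was called at 2.85 (edgeR adjusted p = 0.036, beside 10.7% of features called in that fit) and DREB1A was not, at 2.23 (edgeR adjusted p = 0.097). The means over replicates, 3.27 ± 1.92 and 16.4 ± 25.2 normalized counts for DREB1B and 2.69 ± 0.527 and 8.72 ± 11.1 for DREB1A in WT and OsRUS1-OX (SD, n = 3), therefore describe no common level of the OsRUS1-OX libraries.

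**Figure D2:**
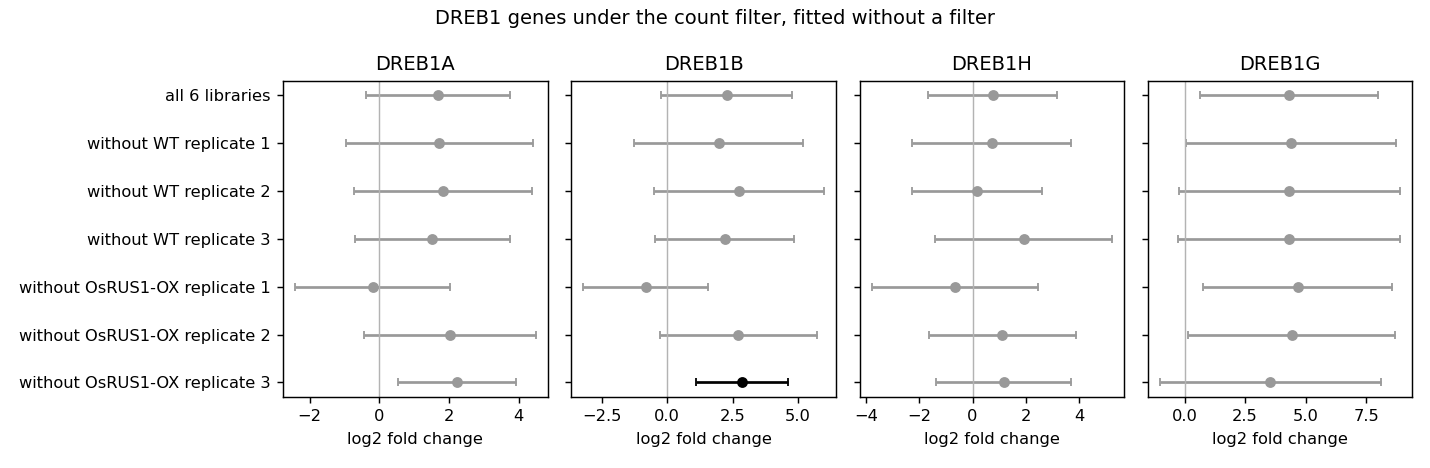
log2 fold change of OsRUS1-OX to WT (x axis) for the 4 DREB1 genes too low for the filter, fitted with edgeR without a filter over all 6 libraries and without each library in turn (y axis), with 95% intervals as bars and adjusted p under 0.05 in black. DREB1A, DREB1B and DREB1H moved below 0 without OsRUS1-OX replicate 1, and the single call was that of DREB1B without OsRUS1-OX replicate 3.

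DREB1G was without reads in WT, whereas OsRUS1-OX libraries held 1, 2 and 5. Overexpression of DREB1G is known to raise drought tolerance in rice. Each OsRUS1-OX library was above each WT library, but the exact 95% interval of the count in every OsRUS1-OX library overlapped with that of 0 reads in WT. Without a filter its edgeR p was 0.0276 and its adjusted p was 0.12, so it was not called. DREB1F, known in rice to respond to salt, drought and cold, and DREB1E had no read in any of the 6 libraries, where 9907 of the 37869 features with an RAP identifier had none either. At this depth a level below 0.222 to 0.342 CPM, depending on the library, could be missed, and how reads of overlapping genes were counted is not given in the sources used here.

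DREB2A, the rice DREB2 gene known to respond to drought and salt, was moderately expressed in every library. Its reads numbered 143, 191 and 139 for WT, against 297, 312 and 306 for OsRUS1-OX. Normalized counts of DREB2A were 201, 200.3 and 147 for WT, against 255, 303 and 256 for OsRUS1-OX. The groups did not overlap, as was the case for 42.4% of tested features, with the lowest OsRUS1-OX library at 255 and the highest WT library at 201 normalized counts. The mean rose from 183 ± 31.1 to 271 ± 27.4 normalized counts (SD, n = 3), a log2 fold change of 0.57 (SE 0.17, 95% interval 0.19 to 0.95, edgeR adjusted p = 0.042). This is a 1.48-fold difference with an interval from 1.14 to 1.94. DREB2A passed the threshold narrowly: of the 4644 features called, 355 had a larger adjusted p. Its log2 fold change was under 1, a size that 12.6% of tested features reached together with the call. Removing single libraries left the direction in place with log2 fold changes of 0.43 to 0.64, but the call was kept only without WT replicate 2. It was lost without WT replicate 1 (adjusted p = 0.062), WT replicate 3 (0.098), OsRUS1-OX replicate 1 (0.062), OsRUS1-OX replicate 2 (0.15) and OsRUS1-OX replicate 3 (0.10), each with edgeR. With 2 libraries in 1 group these fits also had fewer samples.

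DREB2B was the most abundant member and did not differ detectably between the genotypes. WT libraries held 615, 1102 and 893 of its reads, against 1175, 1011 and 1161 for OsRUS1-OX. Normalized counts of DREB2B were 866, 1156 and 944 for WT, against 1008, 981 and 973 for OsRUS1-OX. The OsRUS1-OX libraries lay within the range of the WT libraries. The mean was 989 ± 150 in WT and 987 ± 18.2 in OsRUS1-OX (SD, n = 3), a coefficient of variation of 15.2% against 1.85%, a gap between groups of 3 that was not tested. The log2 fold change was -0.0027 (SE 0.13, edgeR adjusted p = 0.99), and its 95% interval from -0.31 to 0.30 corresponds to 0.809-fold to 1.23-fold. Among tested features, 0.548% had a smaller absolute log2 fold change, and the sign of so small a value changed with the scaling, to 0.07 with library totals alone. In rice DREB2B is known to give splice forms of which only some encode the full protein, and the gene counts used here do not separate them.

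**Figure D3:**
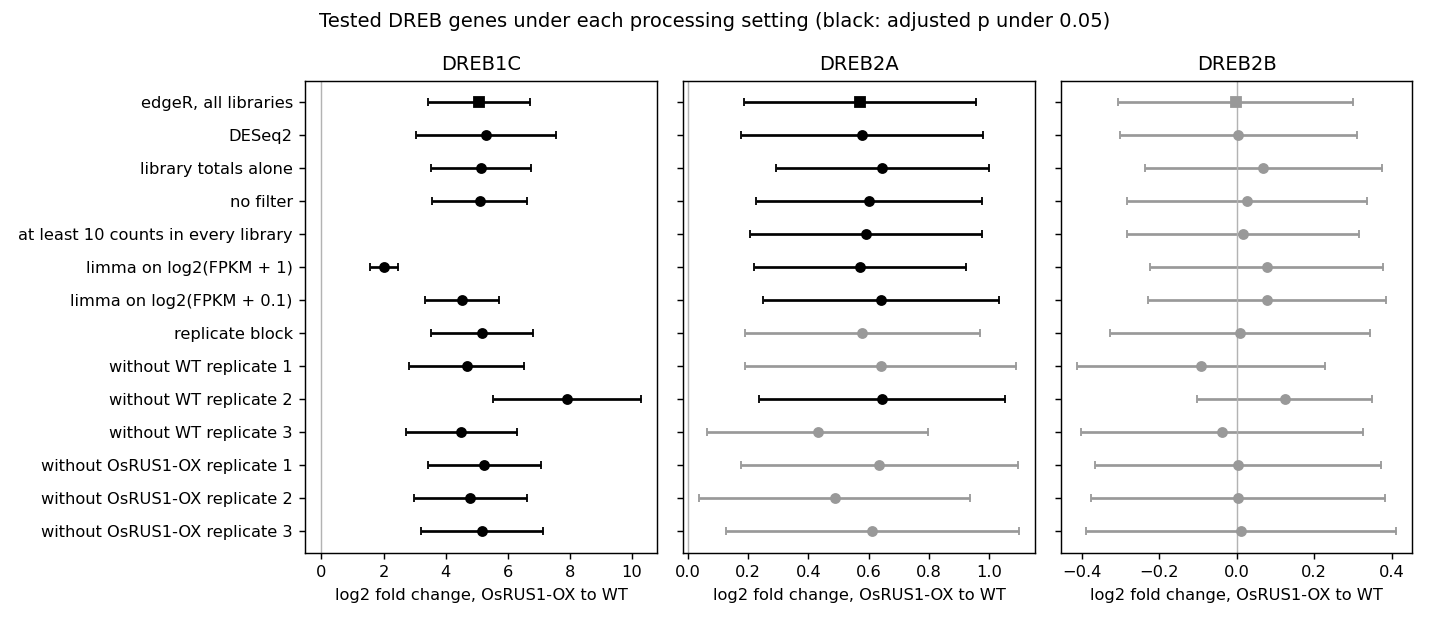
log2 fold change of OsRUS1-OX to WT (x axis, scales differ between genes) of the 3 tested DREB genes under each processing setting (y axis), with 95% intervals as bars and adjusted p under 0.05 in black. DREB1C was called wherever it could be fitted, DREB2A moved between 0.43 and 0.65 and lost its call in 6 fits, and DREB2B stayed around 0.

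Upstream of the DREB genes, 5 genes were read from a list: ICE1 and ICE2, bHLH activators of DREB1 genes in the cold, MYBS3, a repressor of DREB1 genes in rice, MPK3, a kinase that acts on ICE1, and COLD1, a cold sensor of rice. ICE1 had no read, with the same limit on overlapping genes as DREB1E and DREB1F, and 4 were tested, of which 0 rose, 1 fell and 3 were not called. Over all tested features 11.8% fell and 23.6% were called, and with 4 genes tested 1 call cannot be told from these shares. The median log2 fold change was 0.06, beside -0.01 over all tested features. Reads of ICE2 (OS01G0928000) numbered 307, 352 and 536 for WT, against 352, 255 and 315 for OsRUS1-OX. In normalized counts the groups did not overlap, and the mean of ICE2 fell from 456 ± 101 to 271 ± 27.9 (SD, n = 3), a log2 fold change of -0.75 (SE 0.18, edgeR adjusted p = 0.020). The call of ICE2 was lost without OsRUS1-OX replicate 2 (adjusted p = 0.079) and without OsRUS1-OX replicate 3 (adjusted p = 0.082, both with edgeR), and in limma on FPKM. Reads of MPK3 (OS03G0285800) numbered 43, 28 and 41 for WT, against 139, 70 and 81 for OsRUS1-OX. Every OsRUS1-OX library was above every WT library in normalized counts, yet MPK3 was not called, at 0.95 (SE 0.34, edgeR adjusted p = 0.083). Its highest value was in OsRUS1-OX replicate 1, the library in which DREB1A and DREB1B stood out, at 1.75 times the next. Among the OsRUS1-OX libraries ICE2 was also highest there (302 normalized counts), whereas MYBS3 (2211) and COLD1 (461) were lowest there. A relation of these genes to DREB1A and DREB1B was not tested. MYBS3 (OS10G0561400) had a log2 fold change of 0.18 (edgeR adjusted p = 0.28) and COLD1 (OS04G0600800) of -0.07 (edgeR adjusted p = 0.71), and neither was called.

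Of 10 water-deficit genes known as responsive to DREB factors or to ABA, all were tested, 9 rose, 0 fell and 1 was not called. The study had already reported LIP9, RAB16A, RAB16B and LEA3 as raised in these samples, and most of its regulated galactinol synthesis genes. For LIP9, RAB16A, RAB16B and LEA3 it reported the same direction by qRT-PCR on separately collected samples. The count of 9 that rose here is thus no independent evidence of direction. The median log2 fold change was 4.53, beside -0.01 over all tested features, of which 11.8% rose. Setting the genes without WT reads to their lower bounds could not move this median, since these bounds all lie above it. RAB16A, RAB16B, SALT and WSI724 passed the filter through their OsRUS1-OX libraries alone, as DREB1C did. In WT these 4 lay under the filter, so they could be tested only because they were higher in OsRUS1-OX. Both the count and the median include them. With at least 10 counts required in every library, 6 of the 10 were tested and 5 rose, beside 10.7% of all features in that fit. LIP9 (OS02G0669100), a dehydrin known in rice as a DREB1A target, rose from 1812 ± 403 to 11026 ± 3169 normalized counts (SD, n = 3), a log2 fold change of 2.61 (edgeR adjusted p = 0.00088). WSI724 (OS03G0322900), a water-stress-induced gene also known as a DREB1A target, was counted 2 times in each WT library, against 64, 161 and 104 times for OsRUS1-OX. Pooled, its reads were 42.2 times as frequent in OsRUS1-OX (counting interval 19.2 to 116). The dehydrins RAB16A (OS11G0454300) and RAB16B (OS11G0454200), better known as ABA-responsive, had no read in WT. OsRUS1-OX libraries held 2929, 3863 and 2448 reads of RAB16A and 524, 493 and 239 of RAB16B, at least 2371-fold and at least 322-fold higher against a floor of 3 reads over the WT group. SALT (OS01G0348900), a salt-induced lectin, was likewise without reads in WT, against 74, 448 and 63 for OsRUS1-OX. LEA3 (OS05G0542500), a LEA protein, rose by 7.40 on the log2 scale (edgeR adjusted p = 0.00024).

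The remaining genes of this list make osmoprotectants or regulate heat genes. The galactinol synthases OS03G0316200 and OS07G0687900 rose by 3.72 (edgeR adjusted p = 0.00067) and 3.26 (edgeR adjusted p = 0.00051) on the log2 scale. P5CS (OS05G0455500), an enzyme of proline synthesis, rose by 1.72 (edgeR adjusted p = 0.0017). HSFA3 (OS02G0527300), a heat shock factor whose Arabidopsis counterpart is a DREB2A target, was not called, at 0.20 (SE 0.14, edgeR adjusted p = 0.37). Beside these genes, DREB1C at 5.08 lay within the range of the called water-deficit genes and DREB2A at 0.57 below it, and the level of DREB1C per length in OsRUS1-OX was far below that of LIP9 (3.42 against 745 FPKM). Which of these genes, if any, was bound by a DREB protein was not measured.

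**Figure D4:**
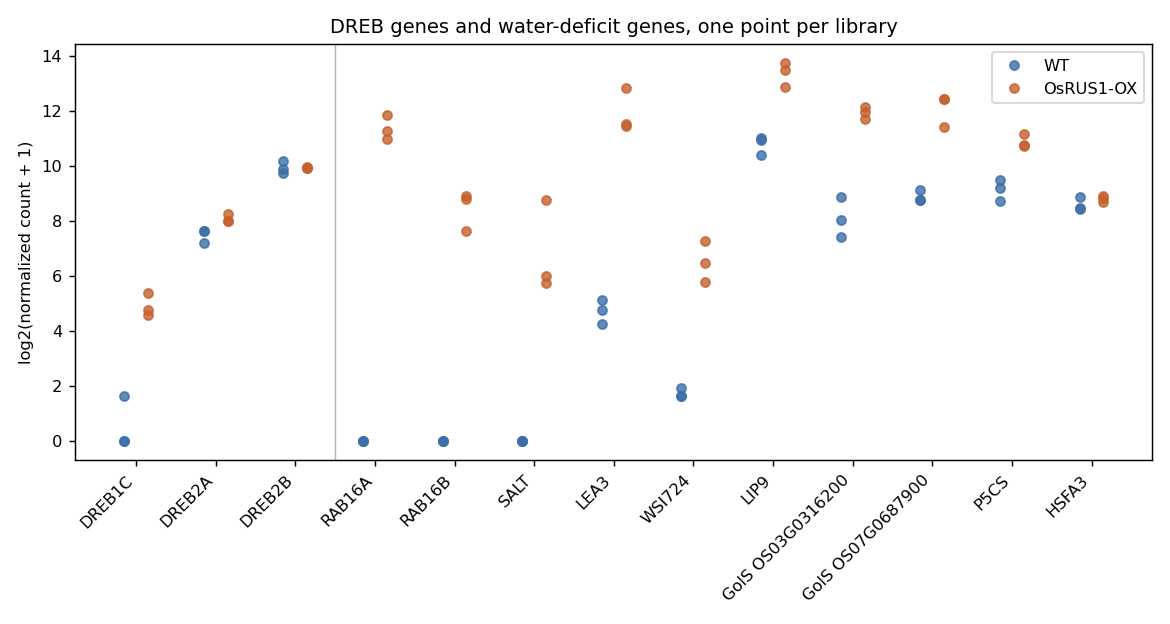
log2(normalized count + 1) (y axis) in each library for the 3 tested DREB genes and, right of the line, the 10 water-deficit genes (x axis), with 1 point per library, WT in blue and OsRUS1-OX in orange. DREB2A and DREB2B changed little beside the 9 water-deficit genes that rose, and RAB16A, RAB16B and SALT had no read in any WT library.

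The genes whose profile over the 6 libraries came nearest to that of each tested member were found among 19354 tested genes by the root-mean-square distance of centred log2 CPM. For DREB1C these were OS07G0588600 at a distance of 0.190 and OS05G0195101 at 0.198, beside a median distance of 1.87. OS07G0588600 was as scarce as DREB1C, with 0 to 32 reads, whereas OS05G0195101 had 27 to 699 reads. For DREB2A they were OS03G0170300 (0.0647) and OS04G0649051 (0.0790), beside a median of 0.446, and neither passed the threshold (edgeR adjusted p = 0.065 and 0.094). For DREB2B they were OS03G0355100 (0.0168) and OS12G0623800 (0.0219), beside a median of 0.322. These are the smallest of many distances over 6 libraries, and nothing beyond likeness of profile is read from them.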

How the data were processed

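The authors sequenced flag leaf RNA on an Illumina platform, mapped reads to the rice genome with TopHat2 2.0.12 and counted reads per gene with HTSeq 0.6.1. The count table was deposited as raw counts, and the authors derived the FPKM values from these counts and the length of each gene. Strand and overlap settings are not given in the sources used here. Counts were analysed in R 4.3.3 with edgeR 4.0.16: TMM scaling, a filter at 0.845 CPM in at least 3 libraries (minimum count 10, minimum total 15), the quasi-likelihood test on genotype over 19694 features, and Benjamini-Hochberg adjustment, called at adjusted p under 0.05. The study used DESeq. DESeq2 1.42.0 served as an alternative, and so did limma 3.58.1 on FPKM after adding 1 or 0.1 and taking log2, besides other filters and scalings, a replicate block, and removal of each library. The fits were checked on simulated counts, with changes placed only in features that passed the filter and lay above the median level. That check covered neither genes as scarce as the DREB1 genes nor the fits without a filter. The changes placed were all larger than those of DREB2A, ICE2 and MPK3, so changes as small as these were not checked. Standard deviations and n refer to 3 libraries per genotype. The p-values weigh the difference between genotypes against the spread between these libraries, moderated over features. All OsRUS1-OX libraries came from a single transgenic line, so variation between lines is not included. The SE of an edgeR log2 fold change was derived as its absolute value over the square root of the F statistic of the test. Its 95% interval was built from this SE, and both are approximate where WT had few reads, as for DREB1C. Intervals of read counts are exact Poisson intervals at 95%, and like the floor of 3 counts they cover counting error only. No libraries looked duplicated: replicate pairs differed by 8.55 to 27.9 times sampling noise (chi-square per degree of freedom).

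The named genes were all 9 members, every gene of the upstream and water-deficit lists, the 2 nearest profiles for each tested member, genes that check the tissue and the labels, and, of the added AP2 genes, the 2 called genes with the largest increase and the 2 with the largest decrease provided that each library of the genotype with the higher level held 10 reads or more. Members and lists were chosen with earlier results of these data known. All 9 members matched by symbol or synonym in RefSeq, which was used for chromosome and neighbours only. Gene families by product name, promoter motifs and protein comparisons were planned but not analysed here, since no table of product names or sequences was at hand. Fold changes and p-values of the authors were not used, except that membership of the added AP2 list came from the study's table of regulated genes.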

Additional observations from a re-analysis of the deposited data

How the results depend on the processing

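Removal of single libraries aside, DREB1C kept its direction and call in all settings in which it was tested, with log2 fold changes of 2.02 (limma on log2(FPKM + 1)) to 5.31 (DESeq2), and it was not tested with at least 10 counts in every library. DREB2A kept its direction at 0.57 to 0.65 in the same settings and lost its call with a replicate block (0.58, edgeR adjusted p = 0.0502) and with an added threshold of an absolute log2 fold change of 1 (0.57). Without single libraries DREB2A ranged from 0.43 to 0.64, and the DREB genes called numbered 1 to 2. They numbered 1 with at least 10 counts in every library, 1 with the replicate block and 1 with the fold threshold. Over all features, 2399 to 5219 were called without single libraries (2399 without OsRUS1-OX replicate 3, 2524 without OsRUS1-OX replicate 2) and 2477 with the fold threshold, against 4644.

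Upstream calls numbered 1 in the main test, 0 with limma at either pseudocount, 0 with the fold threshold, 2 with the replicate block (ICE2 and MPK3, the latter at adjusted p = 0.037 with edgeR) and 0 to 1 without single libraries. Water-deficit calls numbered 5 with at least 10 counts in every library, where only 6 of the listed genes were tested, against 9 in the main test. No called result changed direction. DREB2B was never called, at -0.09 to 0.12 without single libraries. Without a filter and without OsRUS1-OX replicate 1, a fit added after seeing the data, the sign turned for DREB1A (-0.20), DREB1B (-0.82) and DREB1H (-0.66). The labels give both genotypes replicates 1 to 3. Deviations of libraries with the same number correlated at 0.13, -0.091 and 0.11, and WT replicates 2 and 3 correlated best with another number, so the numbers were not taken as pairs. With the block 4013 features were called. Each DREB1 gene had 0 to 5 reads in every WT library, and at this depth lower levels could be missed.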

Other observations

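A further 14 genes that the study annotated to the AP2 family, chosen after seeing the data from those it listed as regulated on these samples and so no independent evidence of any direction, stood beside the DREB members. Of these, 13 were tested, 10 rose and 3 fell, with a median log2 fold change of 1.25, beside 11.8% higher and 11.8% lower over all tested features. OS01G0200600 was without reads in WT and counted 67, 21 and 28 times for OsRUS1-OX, at least 29.8-fold higher against a floor of 3 reads over the WT group (edgeR adjusted p = 0.0064). OS02G0764700 rose by 3.76 on the log2 scale (edgeR adjusted p = 0.0049). OS01G0885900 fell by 2.94 (edgeR adjusted p = 0.0060) and OS01G0141000 fell by 1.25 (edgeR adjusted p = 0.0057). OS10G0523900, annotated as a putative DREB protein and named after its values were seen, was removed by the filter, with 0, 0 and 1 reads for WT against 9, 9 and 11 for OsRUS1-OX. Its reads were 22.3 times as frequent in OsRUS1-OX, with a counting interval of 3.70 to 912, and without a filter it was called at a log2 fold change of 4.12 (edgeR adjusted p = 0.0079). Its counts were similar across the 3 OsRUS1-OX libraries, as were those of DREB1C and unlike those of DREB1A and DREB1B.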
